A study of Rattus norvegicus with 12 samples.

Results

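The difference between 2 rat hepatic cell lines in their transcriptional response to rapamycin was measured as (GN5 rapamycin minus GN5 vehicle) minus (H5D rapamycin minus H5D vehicle) on 12 Illumina RatRef-12 bead arrays, 3 in each of 4 groups. A probe was kept if its signal had a detection p of at most 0.01 on all 12 arrays, which left 6346 of the 22523 probes (28.2%). These stood for 4785 named genes. The GN5 line was derived from the rat liver epithelial line WB-F344 with the alkylating carcinogen N-methyl-N'-nitro-N-nitrosoguanidine, and the H5D line came from a hepatocellular carcinoma that an azo dye had induced in a Fischer rat. Both lines were described as tumorigenic and as intermediate in their sensitivity to rapamycin, with doubling times of 21.6 h and 26.6 h. Their sensitivity was not equal, however. The reported half-maximal inhibitory concentration for DNA synthesis lay below 50 nM for GN5 and above it for H5D. Inhibition at the highest dose tested was also larger in GN5. GN5 cells were grown in DMEM/F12 with added glutamine and H5D cells in Waymouth medium, both with fetal bovine serum, and cells of each line received dimethyl sulfoxide as vehicle or 50 nM rapamycin for 24 h. Line and medium cannot be told apart, and each line is a single line, so that the comparison describes these cultures. The replicates were triplicate plates, so p-values measure the spread between plates.

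Rapamycin binds the protein FKBP12, and the complex inhibits mTOR complex 1, a kinase that couples amino acids, growth factors and energy to protein synthesis, nucleotide and lipid synthesis and the suppression of autophagy. In many cell types mTOR complex 1 sustains the translation of the transcription factor ATF4, which drives genes for amino acid uptake, serine and proline synthesis and tRNA charging. Inhibition of mTOR complex 1 also relieves feedback onto growth factor signaling. The contrast addressed which of these and other genes responded unlike in the 2 lines.

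The hepatic label was compared with marker genes. Albumin, alpha-fetoprotein, transthyretin and Hnf4a were undetected on all 12 arrays, whereas Krt8 and transferrin (Tf) were detected on all of them. Of 5 biliary and progenitor markers measured, Krt7 was detected in both lines, Spp1 on 5 of 6 GN5 arrays and all H5D arrays, Krt19 in H5D only and the other 2 on no array. Of 5 mesenchymal markers, Vim was detected in both lines at like levels, Tagln, Col1a1 and Col3a1 in GN5 only, and Thy1 on no array. Of 3 blood markers measured, Ptprc and Hbb were undetected and Cd14 was detected in both lines, and the endothelial Cdh5 and Vwf were undetected. Between 7427 and 8483 probes were detected on an array, and correlations of arrays were 0.9864 to 0.9957 within a group and 0.8853 to 0.9034 between lines. GN5 vehicle replicates 2 and 3 had brighter raw medians (105.9 and 96.2, against 74.3 to 82.7 on the other arrays), and H5D vehicle replicate 2 had the lowest mean correlation with its group (0.9876).

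The response differed between the lines for 46 of the 6346 probes, or 0.725% (limma, adjusted p below 0.05), and 837 probes had an unadjusted p below 0.05. The GN5 response lay above the H5D response for 21 of them (0.331%) and below it for 25 (0.394%). Of the 46 probes, 37 carried a gene symbol. After scaling arrays to a common median in place of quantile normalization, 38 of 57 called probes (66.7%) lay above, against 45.7% in the main fit. The treatments did not overlap on the GN5 arrays for 41 of the 46 probes (26.7% of all tested) and on the H5D arrays for 32 (22.4% of all tested). The 2 line responses had opposite signs for 36 of the 46 probes and the same sign, with the larger size in GN5, for 10. Since a large difference itself favors opposite signs, and some of these values lie near 0, this is a description of the selected probes (59.2% of all tested probes had the same sign). Tested in each line alone, 34 of the 46 were called in GN5 only, 1 (Ccn2) in H5D only, 2 in both and 9 in neither. The H5D responses of the other 43 are therefore given below as values, not as changes shown in that line. Leaving out single arrays left between 18 probes (without GN5 vehicle replicate 2) and 57 probes (without H5D vehicle replicate 2). Fewer than 31 remained also without H5D vehicle replicate 1 (29), H5D rapamycin replicate 2 (21) or GN5 rapamycin replicates 1 (27), 2 (22) or 3 (19), and 11 were called without both of the bright GN5 vehicle arrays. Of the 37 genes, 15 were called in each of the 12 fits that left out an array, and 7 of these (Ankrd1, Dusp1, Bdnf, Arhgap24, Id2, Ccn2 and Gchfr) under all other alternatives as well. Of the other 8, the call ended without both bright GN5 vehicle arrays for Slc7a5, Lgals1, Tsc22d3, Tuba1a, Gadd45a, Ifi27l2b and Krt8, and without variance moderation for Rgs2, Slc7a5 and Tuba1a. With a replicate block within each line it ended for Gadd45a, Ifi27l2b and Krt8, after scaling to a common median for Krt8, and with no background correction, the deposited normalized table or a larger offset for Ifi27l2b. The sign of no called gene turned under any of these alternatives.

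Tested on its own 6 arrays, GN5 had 357 called probes (5.63%), of which 162 rose (2.55%) and 195 fell (3.07%). H5D had 21 (0.331%), of which 10 rose (0.158%) and 11 fell (0.173%). The count for H5D was 179 with the spread estimated over all 12 arrays and between 0 (without H5D rapamycin replicate 2) and 16 without 1 array, so the ratio of these counts depended on the fit. Across the 6346 probes the 2 responses had a Pearson correlation of 0.333 and a Spearman correlation of 0.300, given as a description since genes are not independent replicates, and 59.2% of probes had the same sign in both lines. Of the 357 probes called in GN5, 272 (76.2%) had the same sign in H5D. The probes that rose in GN5 had a median of 0.47 on the log2 scale there and of 0.11 in H5D. Those that fell had medians of -0.50 and -0.18. Of the 21 probes called in H5D, 18 (85.7%) had the same sign in GN5, with medians of 0.76 in H5D and 0.17 in GN5 for those that rose and of -0.79 and -0.65 for those that fell. In both cases the probes were chosen on 1 line, which by itself makes the values in the other line smaller, so these medians do not compare the size of the responses. Of the 357 GN5 probes 36, and of the 21 H5D probes 3, were called for the difference itself.

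**Figure D1:**
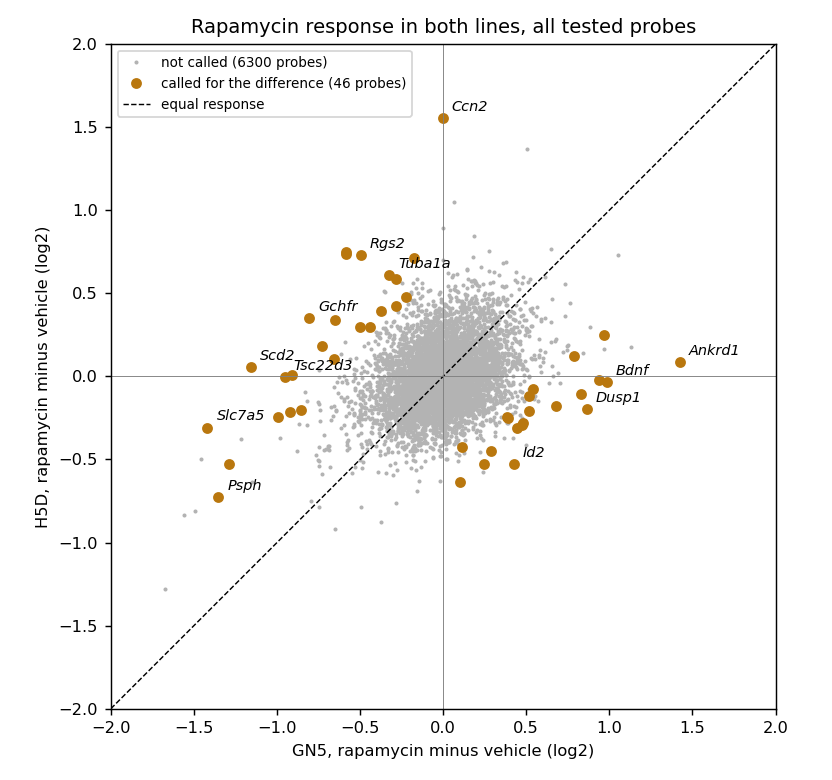
Rapamycin response (log2, rapamycin minus vehicle) in GN5 cells on the x axis and in H5D cells on the y axis for the 6346 tested probes, with the 46 probes called for the difference in orange and equal response as a dashed line. Ccn2 lies at 1.56 on the H5D axis and near 0 on the GN5 axis, and Ankrd1 at 1.43 on the GN5 axis and 0.08 on the H5D axis.

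The largest differences in both directions were in genes that the coactivators YAP and TAZ and their DNA-binding partners, the TEAD factors, are known to drive. Ccn2 (connective tissue growth factor), a secreted matrix protein, was 2.94-fold higher under rapamycin in H5D, against 1.00-fold in GN5 (95% interval of the log2 change -0.20 to 0.20). Ankrd1, a muscle ankyrin repeat protein and a common readout of YAP activity, was 2.69-fold higher in GN5, against 1.06-fold in H5D. Ccn2 is shown first by its promoter, because it holds the TEAD motif GGAATG 3 times on the strand of the gene, at 166, 101 and 92 bases before the transcription start. The 250 bases before the start (RefSeq, GRCr8, chr1:22624615-22624864, minus strand) are given with the motif in capitals.
Ccn2: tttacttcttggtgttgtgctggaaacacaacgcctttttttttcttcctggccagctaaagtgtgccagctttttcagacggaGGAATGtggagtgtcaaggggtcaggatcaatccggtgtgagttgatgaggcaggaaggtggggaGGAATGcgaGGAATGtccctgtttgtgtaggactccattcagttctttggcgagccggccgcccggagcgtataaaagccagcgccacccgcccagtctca

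On the H5D arrays Ccn2 lay at log2 levels of 9.41, 9.48 and 9.05 under vehicle and 10.92, 10.91 and 10.79 under rapamycin. On the GN5 arrays it lay at 13.76, 13.73 and 13.75 under vehicle and 13.84, 13.73 and 13.67 under rapamycin. The H5D groups were well apart and the GN5 groups overlapped. The difference was -1.56 (SE 0.154, 95% interval -1.89 to -1.23, adjusted p = 0.000336, n = 3 per group, limma). In GN5 the gene was already among the brightest on the array, with only 33 to 63 of the 22523 probes above it. The brightest probe stood at 14.17 on each GN5 array, a top value that quantile normalization makes equal. A rise of the size seen in H5D would have exceeded every probe. Before normalization the brightest GN5 probe read 17235.5 to 21375.6 and Ccn2 13425.2 to 16588.7. Whether a limit of the signal held the GN5 response down was not tested.

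Ankrd1 had levels of 6.57, 6.43 and 6.36 in GN5 vehicle and 8.09, 7.84 and 7.71 in GN5 rapamycin. The H5D values were 6.35, 6.01 and 6.34 with vehicle and 6.32, 6.34 and 6.29 with rapamycin. All GN5 rapamycin arrays stood above the rest, and the other 3 groups lay together at dim levels, which the offset compresses. Whether this held the H5D response down was not tested. The difference was 1.34 (SE 0.165, interval 0.99 to 1.70, adjusted p = 0.0013, limma).

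Of 16 measured members of the YAP and TEAD list, 2 were called above and 2 below, and the list median of 0.05 lay beside a median of 0.005 over all 4785 genes, of which 37 (0.773%) were called. Ddah1, which breaks down an inhibitor of nitric oxide synthase, was the other gene above (0.64, SE 0.136, adjusted p = 0.0452, limma), with 0.52 in GN5 and -0.12 in H5D. Its call was kept only without H5D vehicle replicate 2 or H5D rapamycin replicate 3 (adjusted p up to 0.158 without another array). Gadd45a, a stress and growth arrest protein that p53 also induces, lay below (-0.91, SE 0.146, adjusted p = 0.00832), with -0.73 in GN5 and 0.18 in H5D. Caveolin-1 (Cav1) did not pass, with a change of 0.50 in GN5 and 1.37 in H5D (difference -0.87, adjusted p = 0.0756), nor did Ccn1, another CCN family protein, with 0.97 and 0.16 (difference 0.80, adjusted p = 0.0936). Edn1, the precursor of endothelin-1, had responses of 1.05 in GN5 and 0.73 in H5D (difference 0.32, adjusted p = 0.371). The members thus spread to both sides, as the plot of list members shows. Members such as Ccn2, Ccn1 and Ankrd1 answer to other signals as well.

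Among called genes with roles in signaling, Dusp1, Id2, Bdnf and Nfkbia were each the 1 call of a list. Rgs2, Arhgap24, Rasl11b and Tsc22d3 came from no list, and all are described together for convenience. Dusp1, the phosphatase that inactivates MAP kinases, was higher under rapamycin in GN5. Its promoter (RefSeq, GRCr8, chr10:17184603-17184852, plus strand) is shown because it was the only one among the 29 promoters found for called genes with the full cAMP response element TGACGTCA, in capitals, 124 bases before the start.
Dusp1: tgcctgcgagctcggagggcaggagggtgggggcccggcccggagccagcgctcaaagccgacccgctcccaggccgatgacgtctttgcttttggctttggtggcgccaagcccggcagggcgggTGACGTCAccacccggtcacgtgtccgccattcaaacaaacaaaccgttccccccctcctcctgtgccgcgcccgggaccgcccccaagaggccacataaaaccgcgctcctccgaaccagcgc

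Dusp1 had levels of 10.95, 10.87 and 10.96 in GN5 vehicle and 11.82, 11.70 and 11.86 in GN5 rapamycin. In H5D it lay much lower, at 7.36, 7.38 and 7.33 with vehicle and 7.07, 7.08 and 7.32 with rapamycin. The GN5 treatments were far apart, and the H5D response of -0.20 did not pass on its own (interval -0.43 to 0.03, adjusted p = 0.384, limma). The difference was 1.06 (SE 0.13, interval 0.79 to 1.34, adjusted p = 0.0013, limma). It was the only called gene among 18 immediate early and MAP kinase feedback genes, whose median was 0.13. Dusp6, a phosphatase for ERK, had responses of 0.49 in GN5 and 0.34 in H5D (difference 0.15, adjusted p = 0.774).

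Rgs2, a GTPase-activating protein that shortens signaling from Gq-coupled receptors, had a difference below 0. Its levels were 9.17, 8.83 and 9.06 in GN5 vehicle and 8.43, 8.53 and 8.60 in GN5 rapamycin. They were 10.96, 10.50 and 11.07 in H5D vehicle and 11.61, 11.55 and 11.56 in H5D rapamycin. The arrays of the treatments were apart in both lines, lower in GN5 and higher in H5D, though the H5D response did not pass on its own (adjusted p = 0.0817, limma). The difference was -1.22 (SE 0.188, interval -1.63 to -0.82, adjusted p = 0.00572).

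Id2, an inhibitor of basic helix-loop-helix factors and a target of BMP signaling, had line responses of 0.43 and -0.53. It lay at 10.14, 10.11 and 10.15 in GN5 vehicle and 10.55, 10.53 and 10.60 in GN5 rapamycin. In H5D the vehicle arrays read 10.06, 9.91 and 9.98 and the rapamycin arrays 9.31, 9.53 and 9.53. No array overlapped between treatments in either line, and the H5D response did not pass on its own (adjusted p = 0.0792, limma). Starting from nearly the same level in both lines, Id2 ended 0.95 further apart (SE 0.125, interval 0.69 to 1.22, adjusted p = 0.00156, limma). It was the only called gene of 13 in the TGF-beta and BMP list, of which 11 had a difference above 0, with a median of 0.26. This median was 0.08 without H5D rapamycin replicate 1, 0.10 without H5D vehicle replicate 2 and 0.14 without GN5 vehicle replicate 1. Id1 (0.72, adjusted p = 0.177) and Smad6, an inhibitor of BMP receptors (0.59, adjusted p = 0.150), did not pass.

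Bdnf, a neurotrophin ligand for the receptor TrkB, had levels of 5.99, 5.69 and 6.03 in GN5 vehicle and 6.82, 6.87 and 6.97 in GN5 rapamycin. Its H5D values stayed between 6.31 and 6.45 on all 6 arrays. Only the GN5 treatments were apart, and the gene was dim in both lines (difference 1.02, SE 0.141, interval 0.72 to 1.32, adjusted p = 0.00215, limma). Among 8 growth factor ligands measured it was the only call. Wnt5a (-0.86, adjusted p = 0.0804), Pdgfa (-0.63, adjusted p = 0.101) and Tgfa (0.61, adjusted p = 0.109) did not pass.

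Arhgap24, a GTPase-activating protein for Rac, lay at 9.17, 9.12 and 9.02 in GN5 vehicle and 10.02, 10.11 and 9.99 in GN5 rapamycin. The 6 H5D arrays read between 8.56 and 8.65 whatever the treatment. The change was thus seen in GN5, where the groups were far apart, and not in H5D (difference 0.96, SE 0.116, interval 0.71 to 1.21, adjusted p = 0.0013, limma). Nfkbia, the inhibitor that holds NF-kappaB in the cytoplasm, had responses of 0.48 in GN5 and -0.28 in H5D (difference 0.76, SE 0.157, adjusted p = 0.037). It kept its call only without GN5 vehicle replicate 1 or 3 (adjusted p up to 0.101 without another array), and the other 7 members of the NF-kappaB list were not called (median of the list 0.08). Rasl11b, a small GTPase of the Ras family named here after its values were seen, had responses of 0.54 and -0.08 (difference 0.62, adjusted p = 0.0477). Its call was kept only without GN5 rapamycin replicate 2, with an adjusted p of up to 0.159 without any of the other 11 arrays.

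Tsc22d3, also known as glucocorticoid-induced leucine zipper, is a transcriptional repressor of inflammatory genes. Its levels were 7.16, 7.05 and 7.18 in GN5 vehicle and 6.07, 6.3 and 6.15 in GN5 rapamycin. The H5D arrays stood at 9.23, 9.14 and 9.22 with vehicle and 9.06, 9.16 and 9.35 with rapamycin. GN5 fell by nearly a full log2 unit and the H5D treatments overlapped (difference -0.95, SE 0.137, interval -1.24 to -0.65, adjusted p = 0.00328, limma).

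**Figure D2:**
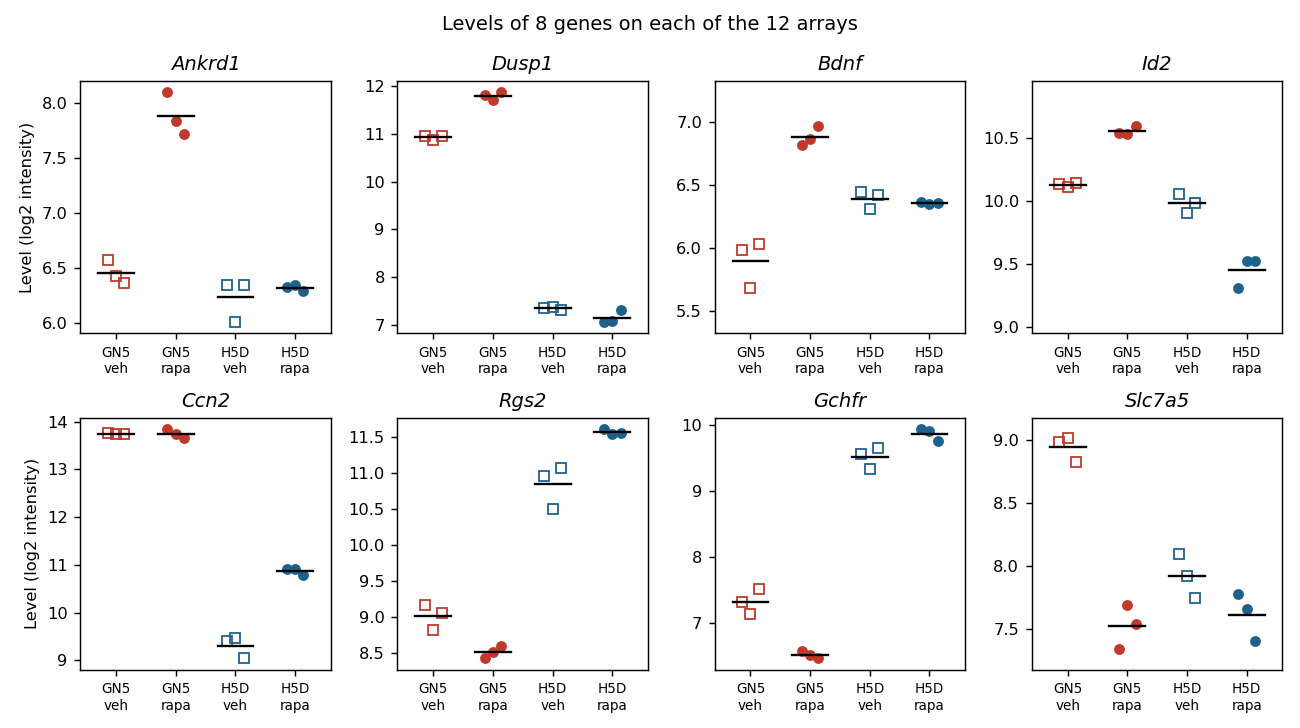
Level (log2 intensity) of 8 genes on each of the 12 arrays, with GN5 in red, H5D in blue, vehicle as open squares, rapamycin as filled circles and the mean of each group of 3 as a bar. Each panel has its own scale: Ankrd1, Dusp1, Bdnf and Id2 were higher with rapamycin in GN5, Ccn2 was at 13.67 to 13.84 in GN5 whatever the treatment, and Slc7a5 fell from 8.83 to 9.02 down to 7.34 to 7.70 in GN5.

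Amino acid uptake and synthesis were covered by the transporter list, with 1 of 9 measured genes called, and the serine and one-carbon list, with 3 of 10, beside 0.773% of all genes. Slc7a5, the light subunit of the leucine transporter LAT1, was at 8.99, 9.02 and 8.83 in GN5 vehicle and 7.34, 7.70 and 7.54 in GN5 rapamycin. In H5D it read 8.10, 7.93 and 7.75 with vehicle and 7.78, 7.66 and 7.41 with rapamycin. The GN5 treatments were more than a log2 unit apart, whereas in H5D 1 rapamycin array overlapped the vehicle range. The difference was -1.11 (SE 0.176, interval -1.49 to -0.73, adjusted p = 0.0077, limma), with -1.42 in GN5 and -0.31 in H5D. The adjusted p reached 0.0905 under the alternatives that ended its call. Of the other 8 amino acid transporters measured none was called. Slc3a2, its partner subunit in LAT1, had a difference of -0.41 (adjusted p = 0.191) and the taurine transporter Slc6a6 one of -0.67 (adjusted p = 0.179). The list median was -0.10.

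Of 10 serine and one-carbon genes, 3 were called below and 0 above, while 6 of the 10 differences lay above 0 and the list median was 0.11. Psph, which releases serine in the final step of its synthesis, was lower in both lines when each was tested alone, with -1.35 in GN5 and -0.73 in H5D (difference -0.63, SE 0.128, adjusted p = 0.037, limma). Mthfd1l, the mitochondrial enzyme that releases formate for nucleotide synthesis, had responses of -0.92 and -0.21 (difference -0.71, SE 0.146, adjusted p = 0.037). Aldh18a1, which belongs to proline rather than serine synthesis, had responses of -0.91 and 0.01 (difference -0.92, SE 0.184, adjusted p = 0.033). In GN5 all 3 enzymes had rapamycin arrays below every vehicle array. The GN5 treatments did not overlap, in either direction, for 26.7% of all tested probes and for 41 of the 46 called probes. Since the 3 genes were picked by their call, this separation adds no support. Phgdh, the first enzyme of serine synthesis, went the other way without passing, with -0.65 in GN5 and -0.92 in H5D (difference 0.27, interval -0.03 to 0.57, adjusted p = 0.437). These 3 calls depended on single arrays: all 3 remained only without H5D vehicle replicate 3, 2 without H5D vehicle replicate 2, 1 without H5D rapamycin replicate 3 or GN5 vehicle replicate 1, and 0 without any other single array. The highest adjusted p among these fits was 0.116 for Psph, 0.128 for Mthfd1l and 0.111 for Aldh18a1, while their differences stayed between -1.05 and -0.58. Scaling to a common median ended the Psph and Mthfd1l calls. The Mthfd1l call also ended with no background correction, the deposited normalized table or offset 50. The H5D call of Psph alone ended without any single H5D array but vehicle replicate 2 (adjusted p up to 0.174).

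Stress regulators and targets linked to ATF4 formed a separate list. Of 9 ATF4-linked stress genes measured 0 were called (limma, also 0 without variance moderation), 4 had an unadjusted p below 0.05, all of them below, and 8 of 9 differences were under 0 with a median of -0.21. Atf4 itself had responses of -0.73 in GN5 and -0.59 in H5D (difference -0.14, SE 0.179, adjusted p = 0.789). The C/EBP homologous protein Ddit3, which ATF4 induces, had responses of -1.15 and -0.63 (difference -0.52, interval -0.95 to -0.09, adjusted p = 0.276), and Atf5 by -1.45 and -0.50 (adjusted p = 0.126). Ddit4, a stress-induced inhibitor of mTOR complex 1, had responses of -1.56 and -0.83 (difference -0.73, adjusted p = 0.0798). Nupr1, a chromatin protein induced by stress, had the most negative change of these in both lines, -1.67 and -1.28 (difference -0.39, adjusted p = 0.310).

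Cytosolic aminoacyl-tRNA synthetases had negative medians in both lines. Of 17 list members measured, which include the scaffold protein Aimp1, 13 had a difference below 0 and 0 were called (5 at an unadjusted p below 0.05, 0 without variance moderation). Their median change was -0.55 in GN5 and -0.19 in H5D, and the median of the differences was -0.24. On single-line tests 12 fell and 1 rose in GN5 and 1 fell in H5D. Over all tested probes, 3.07% fell and 2.55% rose in GN5 and 0.173% fell in H5D. The GN5 count of falls was 6 without vehicle replicate 2 and 8 without rapamycin replicate 2 or 3. The H5D count was 0 without any 1 array and 3 with the spread of all 12 arrays. Yars1, the tyrosine enzyme, had similar values in both (-0.79 and -0.75, difference -0.04, interval -0.34 to 0.26). Lars1, the leucine enzyme, had responses of -0.63 and -0.002 (difference -0.62, adjusted p = 0.134).

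Lipid, redox and cofactor genes held further calls. Scd2, a stearoyl-CoA desaturase that makes monounsaturated fatty acids, was at 8.31, 7.93 and 7.75 in GN5 vehicle and 6.54, 7.07 and 6.91 in GN5 rapamycin. The H5D levels were far higher, at 11.77, 11.61 and 11.85 with vehicle and 11.98, 11.87 and 11.55 with rapamycin. The gene was lower in GN5 only, with overlapping H5D arrays, and spread more than most (difference -1.21, SE 0.227, interval -1.70 to -0.73, adjusted p = 0.0225, limma). The call ended without H5D vehicle replicate 1, H5D rapamycin replicate 1 or 2, GN5 vehicle replicate 2, or GN5 rapamycin replicate 1 or 3 (adjusted p up to 0.0772). Rat has several similar desaturase genes, so this probe may also bind a relative. Among the 10 fatty acid genes measured it was the only call (median -0.12), and Srebf1, the transcription factor that activates them, had a difference of -0.37 (adjusted p = 0.255).

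Gchfr, which restrains the first enzyme of tetrahydrobiopterin synthesis, lay at 7.32, 7.12 and 7.51 in GN5 vehicle and 6.57, 6.51 and 6.46 in GN5 rapamycin. It read 9.56, 9.33 and 9.64 in H5D vehicle and 9.94, 9.90 and 9.76 in H5D rapamycin. Rapamycin arrays were lower in GN5 and higher in H5D without overlap, and the H5D response did not pass on its own (adjusted p = 0.186, limma). The difference was -1.16 (SE 0.158, interval -1.5 to -0.82, adjusted p = 0.00206). Selenbp1, a methanethiol oxidase, was at 9.15, 9.29 and 9.40 in GN5 vehicle and 9.49, 9.65 and 9.44 in GN5 rapamycin. The H5D arrays read 11.34, 11.54 and 11.43 with vehicle and 10.73, 10.94 and 11.05 with rapamycin. Neither line's response passed on its own, and the difference was 0.78 (SE 0.152, interval 0.45 to 1.10, adjusted p = 0.0317), whose call was kept only without H5D vehicle replicate 1 or 2, H5D rapamycin replicate 3 or GN5 vehicle replicate 3 (adjusted p up to 0.0944).

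Gclc, the catalytic subunit for glutathione synthesis, had responses of 0.29 in GN5 and -0.45 in H5D (difference 0.73, SE 0.127, adjusted p = 0.0136, limma). Among the fits without 1 array, the Gclc call ended without GN5 vehicle replicate 2 or GN5 rapamycin replicate 3 (adjusted p up to 0.0566). It also ended with a replicate block within each line and without both bright GN5 vehicle arrays. It was the only call among 30 glutathione and NRF2 genes, with a median of -0.07. Slc40a1, the iron exporter ferroportin, had responses of -0.66 and 0.10 (difference -0.76, SE 0.154, adjusted p = 0.0358). Among the fits without 1 array it kept its call only without GN5 vehicle replicate 1 (adjusted p up to 0.117). The Slc40a1 call also ended after scaling to a common median, with no background correction, the deposited normalized table or offset 50.

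Of 21 interferon-linked genes measured, 2 were called below and 0 above, beside 0.773% of all genes called in either direction, and 16 of the 21 differences were under 0, with a median of -0.17 (-0.08 without H5D vehicle replicate 1 and -0.10 without GN5 rapamycin replicate 2). Ifi27l2b, an interferon-induced mitochondrial protein family member, lay between 7.21 and 7.48 in GN5 vehicle and between 5.99 and 6.05 in GN5 rapamycin. In H5D it lay between 9.07 and 9.19 and between 8.58 and 8.67. Its values were lower with rapamycin in both lines, and more so in GN5 (-1.29 and -0.52, difference -0.76, SE 0.129, adjusted p = 0.0114, limma). The H5D response of Ifi27l2b did not pass on its own (adjusted p = 0.0558, limma). Irf1, a transcription factor of the interferon response, had responses of -0.44 in GN5 and 0.30 in H5D, of which that in H5D did not pass on its own (adjusted p = 0.186), and a difference of -0.74 (SE 0.133, adjusted p = 0.0191). Only Ifi27l2b was called without H5D rapamycin replicate 2, GN5 vehicle replicate 2, or GN5 rapamycin replicate 2 or 3 (adjusted p for Irf1 up to 0.0732). Mnda, an interferon-inducible nuclear protein outside the list, had responses of -0.38 and 0.39 (difference -0.77, adjusted p = 0.04). Among the fits without 1 array, the Mnda call was kept only without H5D vehicle replicate 2 or H5D rapamycin replicate 1 (adjusted p up to 0.128). It also ended after scaling to a common median, with no background correction, the deposited normalized table, offset 50 or no filter. The other Mnda probe, detected on 6 arrays, had a difference of 0.21.

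Cytoskeleton, matrix and secretory genes were called on both sides. Tuba1a, an alpha-tubulin, was at 11.74, 11.56 and 11.65 in GN5 vehicle and 11.44, 11.15 and 11.39 in GN5 rapamycin. H5D vehicle read 10.96, 10.68 and 10.99 and H5D rapamycin 11.37, 11.51 and 11.57. The lines were apart under vehicle, by 0.77 in their means, and overlapped under rapamycin, and neither line's response passed on its own (difference -0.93, SE 0.156, interval -1.27 to -0.60, adjusted p = 0.0102, limma). Alpha-tubulin genes are alike in sequence, so the probe may bind several.

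Lgals1, the secreted lectin galectin-1, lay at 10.96, 11.10 and 11.04 in GN5 vehicle and 10.48, 10.31 and 10.36 in GN5 rapamycin. The H5D values were 11.62, 11.73 and 11.73 with vehicle and 12.14, 12.07 and 11.89 with rapamycin. No treatment groups overlapped, and the gap between the lines widened (difference -0.99, SE 0.132, interval -1.27 to -0.71, adjusted p = 0.0017, limma). Krt8, the keratin of simple epithelia, had responses of -0.28 and 0.43 (difference -0.71, SE 0.115, adjusted p = 0.00832), and the call ended when arrays were scaled to a common median. It was 1 of 4 hepatocyte markers measured, and the other 3 were not called.

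Tnn, the matrix glycoprotein tenascin-N, lay above, with levels of 8.64, 8.56 and 8.56 in GN5 vehicle and 9.28, 9.34 and 9.17 in GN5 rapamycin. In H5D it read 6.74, 6.89 and 6.67 with vehicle and 6.74, 6.31 and 6.72 with rapamycin. It was higher in GN5 without overlap and unclear in H5D, where 1 rapamycin array was low (difference 0.85, SE 0.161, interval 0.51 to 1.2, adjusted p = 0.0231, limma). The Tnn call ended without H5D vehicle replicate 1, GN5 vehicle replicate 2 or 3, or any GN5 rapamycin array (adjusted p up to 0.0806). Mybph, a myosin-binding protein of muscle, had responses of 0.39 and -0.25 (difference 0.64, adjusted p = 0.037). Among the fits without 1 array it kept its call only without H5D rapamycin replicate 3 or GN5 vehicle replicate 3 (adjusted p up to 0.128). The Mybph call also ended with no background correction, the deposited normalized table, offset 50 or an intensity trend. Tmed3, a cargo receptor between endoplasmic reticulum and Golgi, had responses of -0.29 and 0.59 (difference -0.87, adjusted p = 0.0329). This call was kept only without H5D vehicle replicate 2 or GN5 vehicle replicate 1 (adjusted p up to 0.108), and a second Tmed3 probe was undetected on all arrays.

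Genes of RNA processing, repair and transcription completed the set. Rbm25, a splicing factor (0.44 in GN5, -0.31 in H5D, difference 0.75, SE 0.137, adjusted p = 0.0191, limma), and Rsrp1, a nuclear protein rich in arginine and serine (0.97 and 0.25, difference 0.72, adjusted p = 0.0452), were the 2 called of 67 splicing and RNA-binding genes, both above, with a list median of 0.10. The Rbm25 call ended without H5D vehicle replicate 1, H5D rapamycin replicate 2, GN5 vehicle replicate 2 or GN5 rapamycin replicate 2 or 3 (adjusted p up to 0.0718), and that of Rsrp1 was kept only without H5D vehicle replicate 2 or GN5 vehicle replicate 1 (adjusted p up to 0.158). Nol10, a nucleolar protein, had responses of -0.50 and 0.30 (difference -0.80, adjusted p = 0.0329). Its call was kept only without H5D vehicle replicate 1 or 2, H5D rapamycin replicate 3 or GN5 rapamycin replicate 3 (adjusted p up to 0.116), and of the 37 genes on the ribosome biogenesis list, which leaves Nol10 out, limma called 0 (7 at an unadjusted p below 0.05, 0 without variance moderation).

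Rdm1, a relative of the recombination protein Rad52, lay at 6.93, 6.58 and 6.90 in GN5 vehicle and 7.35, 7.23 and 7.24 in GN5 rapamycin. In H5D it read 7.87, 7.70 and 7.93 with vehicle and 7.72, 7.45 and 7.44 with rapamycin. Only the GN5 groups were apart (difference 0.77, SE 0.162, interval 0.42 to 1.11, adjusted p = 0.0452, limma), and the call was kept only without H5D vehicle replicate 2, H5D rapamycin replicate 1 or GN5 vehicle replicate 1 (adjusted p up to 0.158). Rom1, a tetraspanin of photoreceptors, had responses of 0.10 and -0.63 (difference 0.74, adjusted p = 0.0329). Among the fits without 1 array it kept its call only without H5D vehicle replicate 2, H5D rapamycin replicate 3 or GN5 vehicle replicate 3 (adjusted p up to 0.108). The Rom1 call also ended with no background correction or the deposited normalized table. Creb3l1, a membrane-bound transcription factor that regulates collagen and secretory genes, and Hint3, a nucleotide hydrolase, were named after their values were seen, as was Krt8. Creb3l1 had responses of -0.99 and -0.24 (difference -0.75, adjusted p = 0.0329), a call kept only without H5D vehicle replicate 1 or 2, H5D rapamycin replicate 1 or GN5 vehicle replicate 1 (adjusted p up to 0.0933). Hint3 had responses of -0.22 and 0.48 (difference -0.70, adjusted p = 0.0329), kept only without H5D vehicle replicate 2, H5D rapamycin replicate 3, GN5 vehicle replicate 1 or GN5 rapamycin replicate 2 (adjusted p up to 0.116).

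**Figure D3:**
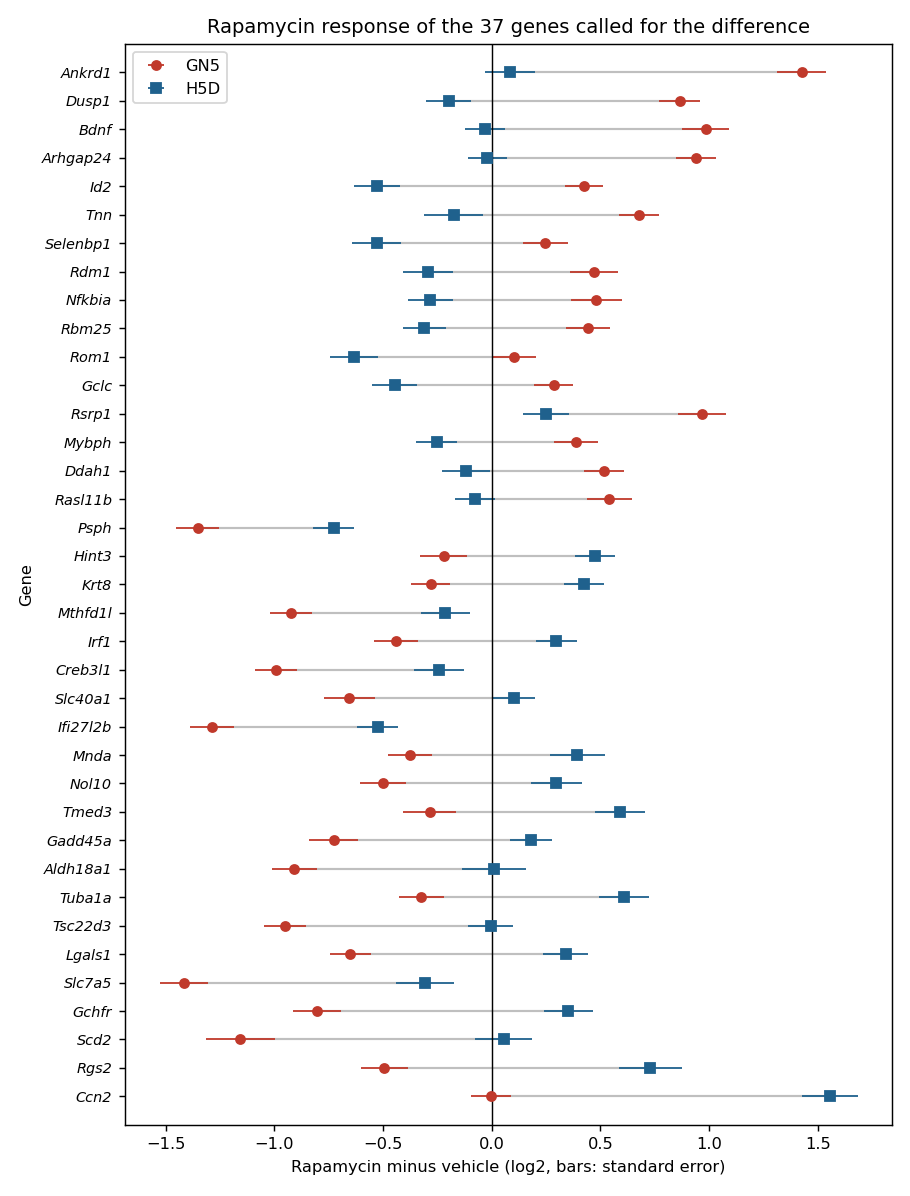
Rapamycin response (log2, x axis) of the 37 named genes called for the difference, with GN5 as red circles, H5D as blue squares and bars for the standard error, ordered by the difference. In most rows the 2 lines lie on opposite sides of 0, while Psph lies below 0 in both (-1.35 in GN5 and -0.73 in H5D) and Ccn2 departs from 0 in H5D only.

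Of the 9 called probes without a gene symbol in the annotation, 5 lay above and 4 below. Probe ILMN_1370638 read 7.80, 7.86 and 7.73 in GN5 vehicle, 7.37, 6.92 and 7.35 in GN5 rapamycin, 7.71, 7.85 and 7.66 in H5D vehicle and 8.42, 8.63 and 8.42 in H5D rapamycin (difference -1.33, SE 0.168, adjusted p = 0.00137, limma). Opposite signs from like starting levels were also seen for ILMN_1355544 (difference -1.32, adjusted p = 0.00151). These and ILMN_1354948 (difference 0.93) were called in all 12 fits that left out an array. The difference of the others ranged from -0.89 to 0.72, with 0 to 8 of these 12 fits calling them. At the threshold, Rasl11b, Rsrp1 and ILMN_1358393 lay just inside, and Igf2r, the receptor that clears insulin-like growth factor 2 (difference 0.67, adjusted p = 0.052), and Eif4ebp1 just outside.

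Genes of the mTOR pathway itself held no call. Of 24 measured, 0 were called (limma; 5 at an unadjusted p below 0.05, 0 without variance moderation and 1 with an intensity trend), with a median of 0.05. Eif4ebp1, the translation repressor 4E-BP1 that mTOR complex 1 phosphorylates, came closest, with -0.83 in GN5 and -0.09 in H5D (difference -0.74, SE 0.163, interval -1.09 to -0.39, adjusted p = 0.0529). It was called without H5D vehicle replicate 2 (adjusted p = 0.0181) or GN5 rapamycin replicate 1 (adjusted p = 0.0234). The intervals were -0.14 to 0.43 for Mtor, -0.35 to 0.27 for Rps6, a substrate of S6 kinase, and -0.57 to 0.41 for Akt1. Among cell cycle genes they were -0.41 to 0.18 for the inhibitor p27 (Cdkn1b), -0.46 to 0.15 for cyclin D1 (Ccnd1), 0.02 to 0.82 for cyclin E1 (Ccne1, adjusted p = 0.352) and -0.37 to 0.33 for Myc. The intervals of Ccne1 and Akt1 leave room for differences of over 0.5.

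Glycolytic genes had negative medians in both lines. Of 15 measured 0 were called for the difference (2 at an unadjusted p below 0.05, 0 without variance moderation), and the medians of their responses were -0.38 in GN5 and -0.22 in H5D. Lactate dehydrogenase A (Ldha) had responses of -0.64 and -0.21 (difference -0.44, interval -0.78 to -0.09, adjusted p = 0.249), and phosphoglycerate kinase (Pgk1) by -0.51 and -0.27 (difference -0.23, interval -0.55 to 0.08, adjusted p = 0.533). The median difference of the list, -0.18, was -0.03 without both bright GN5 vehicle arrays. Cytosolic ribosomal proteins (56 measured, 2 at an unadjusted p below 0.05) and oxidative phosphorylation genes (62 measured, 2) held 0 calls, and their differences lay between -0.45 and 0.41.

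**Figure D4:**
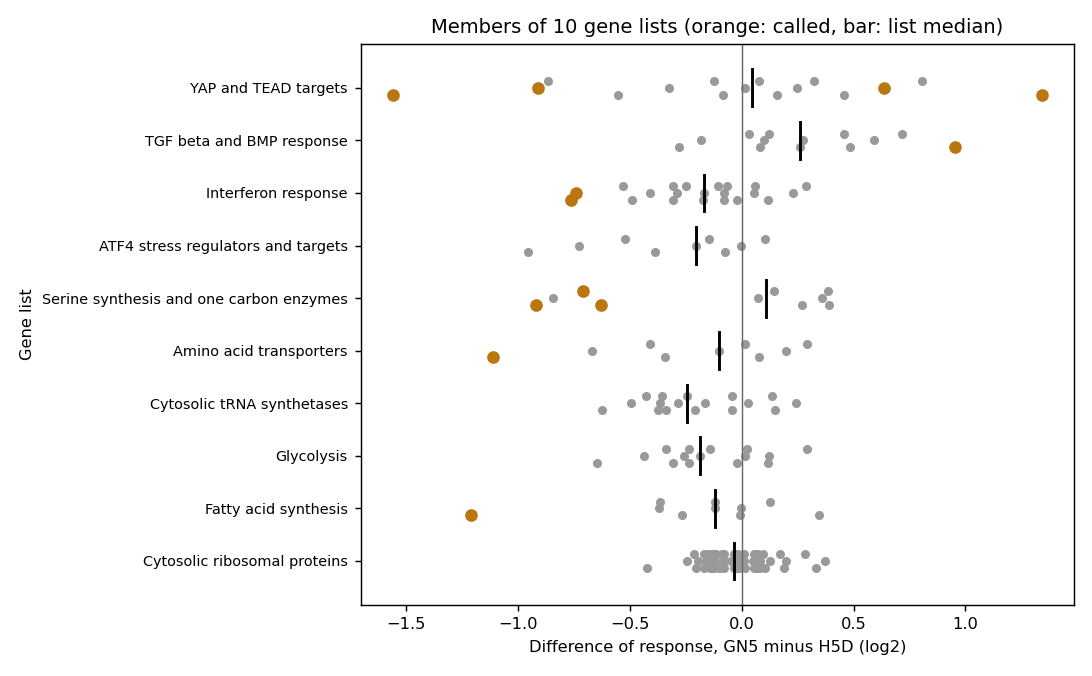
Difference of response (log2, GN5 minus H5D, x axis) for each measured member of 10 gene lists, with called members in orange and the list median as a black bar. The YAP and TEAD members reach from -1.56 to 1.34, while the 56 ribosomal proteins lie between -0.42 and 0.37 around a median of -0.03.

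A RefSeq promoter (GRCr8, the 250 bases before the start) was found for 29 of the 37 called genes, and both strands were searched for 7 motifs, none of which contains another. No promoter was found for Ankrd1, so it was not searched. The share is given over all 33469 promoters and over the 4286 of tested genes. GGAATG was found in 5 of the 29 (Arhgap24, Rasl11b, Tnn, Ccn2 and Mnda), in 12.1% of all and in 9.64% of tested genes. TGACGTCA was found in 1 (Dusp1), against 1.59% and 3.57%, and CACGTG, the E-box, in 2 (Dusp1 and Slc7a5), against 5.59% and 8.96%. CAGACA, a SMAD motif, was found in 5, against 17.2% and 11.7%, and TGATGNAA, a C/EBP-ATF element, in 1 (Rasl11b), against 3.4% and 1.7%. TGANTCA, an AP-1 site, was found in 0 (6.34% and 4.06%), as was the CArG box (1.5% and 0.98%). With counts this small no motif is called more or less frequent among the called genes. These matches describe the sequences and are not binding sites shown by these data.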

How the data were processed

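Total RNA of 12 cultures was hybridised to RatRef-12 bead arrays. The deposited bead summary table held linear intensity per probe with a detection p-value, neither background subtracted nor normalized per the file headers. A second deposited table, used here as an alternative, held intensities after the authors' quantile normalization (BeadStudio), and the submitters' processing notes also name Partek 6.3. Intensities were corrected by a normal-exponential model based on the detection p-values (offset 16), quantile normalized and put on the log2 scale (neqc, limma 3.58.1, R 4.3.3). The contrast was fitted over 12 arrays with lmFit and eBayes, two-sided, with Benjamini-Hochberg adjustment over 6346 probes. Line responses were fitted on 6 arrays each. SE and 95% intervals come from these models, and 3 arrays per group limit the precision. In simulated data on 6346 probes, 50 probes each were given differences of 0.5, 1, 1.5 and 2 (log2). Of the differences of 0.5, 38% were recovered, and of those of 1, 98%. Sizes of 1, 1.5 and 2 gave 49, 50 and 50 calls, against 46 in all on the measured arrays. More calls make the adjusted threshold easier to reach, so these shares may be too high for the measured arrays. The simulated noise was independent between arrays and had the same moderated spread in all groups. It thus held no array effects such as the brighter GN5 vehicle arrays, and the shares do not give the recovery on the measured arrays.

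Of 22523 probes, 13793 had 1 symbol, 0 several and 8730 none. Symbols were updated by Entrez identifier (13752 matched, RefSeq GRCr8). In the 42 gene lists the brightest probe stood for a gene, and the lists hold members of overlapping function. Named were the 15 largest called genes per direction, called members of lists with at least 2 calls, and 13 genes tied to the study's assays, of which Cdk2 was not measured here. Rasl11b, Creb3l1, Krt8, Hint3 and genes that were not called were chosen after their values were seen. Members and lists were chosen with earlier results of these data known. Replicate numbers came from the titles. Same-numbered arrays of a line had deviations correlated at -0.387 to 0.227, and the numbers were not treated as pairs. With 3 arrays per group these correlations cannot exclude a pairing. No arrays had identical values. Alternatives covered normalization, background, offset, detection filter, left-out arrays, array weights, blocks and variance models.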

Additional observations from a re-analysis of the deposited data

Results flagged for a closer look

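For each of the 46 called probes the rapamycin effect differed between the lines by the test of the difference itself, and each is therefore listed with its difference of response (log2, GN5 minus H5D). A share of the calls depends on single arrays, as given with each gene, and some depend on the processing as well. Above 0 were Ankrd1 (1.34), Dusp1 (1.06), Bdnf (1.02), Arhgap24 (0.96), Id2 (0.95), Tnn (0.85), Selenbp1 (0.78), Rdm1 (0.77), Nfkbia (0.76), Rbm25 (0.75), Rom1 (0.74), Gclc (0.73), Rsrp1 (0.72), Mybph (0.64), Ddah1 (0.64) and Rasl11b (0.62). Probes above 0 without a symbol were ILMN_1354948 (0.93), ILMN_1376417 (0.72), ILMN_1358820 (0.66), ILMN_1370146 (0.63) and ILMN_1358393 (0.54).

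Below 0 were Ccn2 (-1.56), Rgs2 (-1.22), Scd2 (-1.21), Gchfr (-1.16), Slc7a5 (-1.11), Lgals1 (-0.99), Tsc22d3 (-0.95), Tuba1a (-0.93), Aldh18a1 (-0.92), Gadd45a (-0.91), Tmed3 (-0.87), Nol10 (-0.80), Mnda (-0.77), Ifi27l2b (-0.76) and Slc40a1 (-0.76). Further genes below 0 were Creb3l1 (-0.75), Irf1 (-0.74), Mthfd1l (-0.71), Krt8 (-0.71), Hint3 (-0.70) and Psph (-0.63). Probes below 0 without a symbol were ILMN_1370638 (-1.33), ILMN_1355544 (-1.32), ILMN_1353579 (-0.89) and ILMN_1368060 (-0.66).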

How the results depend on the processing

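The count of 46 probes called for the difference was 120 with probes detected in at least 1 group, 92 with no filter, 399 with array quality weights, 30 without variance moderation and 11 without GN5 vehicle replicates 2 and 3 together. It lay between 18 and 57 when 1 array was left out and between 45 and 57 under the other normalization, offset, detection and trend settings. The 357 GN5 calls became 233 with no filter, 921 with weights, 35 without moderation (31 by the methods' t-test with its fold limit of 1.2), 107 without both bright vehicle arrays and 103 to 754 without 1 array. The 21 H5D calls became 46 with no background correction, 42 with the deposited table, 39 with offset 50, 56 with probes detected in at least 1 group, 43 with an intensity trend, 536 with weights, 179 with all 12 arrays in the fit and 0 to 16 without 1 array. By the methods' t-test 0 were called after adjustment in H5D, with or without the fold limit (904 at an unadjusted p below 0.05). With the replicate number as a block within each line, 14, 223 and 3 probes were called for the difference, GN5 and H5D, and 42 with the number as a block across all groups. Of the 37 named called genes, 12 kept their call with the block within each line. The numbers were not treated as pairs, but 3 arrays per group cannot exclude that they were.

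All 37 named called genes kept their sign under every alternative. The call was kept by 32 of them after scaling to a common median and by 32 with offset 50. It was kept by 31 with no background correction, 31 with the deposited table, 30 with no filter and 16 without variance moderation. Differences near 0 that were not called turned sign for Rps6 (0.22 when scaled, 0.0618 with weights, -0.11 to 0.0776 without 1 array), Myc (0.0496 when scaled, 0.0827 without both bright arrays, -0.14 to 0.0821 without 1 array) and Akt1 (0.0949 without both bright arrays, 6.254e-05 with weights, -0.29 to 0.0375 without 1 array). Of 984 list medians recomputed under the alternatives, 931 moved by less than 1 SD and 53 by more. The fit with the slide as a block was not run, since no slide was named in the sources used here. Low signal limits dim genes such as Ankrd1, Bdnf and Rdm1, whose log2 levels are compressed by the offset.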
